A study of Piaractus mesopotamicus with 9 samples.

Results

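Myotubes of pacu (Piaractus mesopotamicus) that received an anabolic supplement, either amino acids (AA, 3 libraries) or IGF1 (3 libraries), were compared as a single set of 6 libraries with the 3 libraries of myotubes kept without amino acids (CTR), and each supplement was also set against CTR on its own. The question was which miRNA families move the same way under both pro-growth inputs. Of the 3579 reference miRNAs in the count table, 1769 had a mean of at least 10 counts over the 9 libraries. Where entries, mostly of different fish species, had the same counts in every library, they were taken as a single profile, which left 953 distinct count profiles from 118 miRNA numbers (the number in a name, so that miR-181a and miR-181b share theirs). The cells of all groups came from fast-twitch muscle of juvenile fish, several fish being pooled for a culture, and had formed myotubes after 8 days. AA myotubes then spent 12 h in a medium free of amino acids followed by 24 h in a complete amino acid medium (DMEM), and IGF1 myotubes spent 12 h in the amino acid-free medium followed by 24 h with recombinant gilthead sea bream IGF1 in that same medium. CTR myotubes stayed in the amino acid-free medium for 36 h. The sample characteristics give 12 h for both supplements, so the labels disagree on the length of supplementation. All groups had been deprived, and CTR is a continued deprivation, not a fed culture. The AA medium differed from the CTR medium in its base as well as in its amino acids. The study describes 3 independent cell cultures, without saying which culture gave which library or whether each culture supplied all groups.

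MicroRNAs are cut from a hairpin precursor, and both arms of the hairpin can give a mature miRNA, named 5p and 3p after the side they come from. Usually the arm that is loaded into the silencing complex, the guide, accumulates, while its partner, the passenger, is degraded and is found at a low level; the arm with fewer counts is called the minor arm here. Skeletal muscle carries a set of its own miRNAs, namely miR-1, miR-206, miR-133 and miR-499, which act in myoblast differentiation and fibre type. Amino acids act on protein synthesis through the kinase mTOR, and IGF1 reaches the same kinase through PI3K and AKT, which is why miRNAs that move under both are of interest. The profiles have names only here, because no mature sequences were at hand.

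Counts of the zebrafish entries, which avoid counting the same read for several species, summed to 9628698 to 11198743 in AA libraries, 10628865 to 12908097 in IGF1 libraries and 7627252 to 12074547 in CTR libraries. The muscle-specific miRNAs, the markers of the labelled cell type, were detected in every library but made up only 0.194 to 0.276% of the zebrafish counts in AA, 0.0757 to 0.0851% in IGF1 and 0.0439 to 0.0683% in CTR. The miRNAs of smooth muscle and fibroblasts (miR-143, miR-145, miR-199 and miR-214) made up 5.95 to 7.97% across the 9 libraries, and those of blood cells 0.000538 to 0.00189%. The most abundant profile was dre-miR-21, with 3993000 to 5766140 normalised counts in AA, 5144160 to 7156680 in IGF1 and 5935370 to 5997940 in CTR. Libraries of the same replicate number deviated together from their group means across the groups, with correlations of 0.287 to 0.566. The values for different numbers, -0.484 to 0.15, are not a separate comparison, because deviations from a group mean sum to 0. The replicate number was a block in the main fits.

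Between supplemented and CTR myotubes only 2 profiles, 0.21% of the 953 tested, passed the test (edgeR quasi-likelihood test, with a threshold of 0.05 on the p adjusted by Benjamini-Hochberg and a change of at least 0.55 on the log2 scale, which is 1.46-fold). An unadjusted p under 0.05 was reached by 104 profiles (10.9%). The minor arm dre-miR-181a-3p was higher and ipu-miR-29b was lower under both supplements. The profile ipu-miR-29b passed the filter on low counts only through CTR, the group where it is high, so its call is given as a description and supports nothing. miR-181 is a myogenic miRNA that targets the repressor Hox-A11 in mouse myoblasts, and miR-29 represses collagens and other matrix genes in mammals. Such roles, here and below, are background on the families, and whether they hold for minor arms was not tested. In cultures that mix cell types, fewer cells of a type and less of a miRNA per cell cannot be told apart.

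Normalised counts of dre-miR-181a-3p were 2418, 2851 and 2586 in AA libraries and 2459, 2727 and 2547 in IGF1 libraries, against 1575, 1818 and 1874 in CTR libraries. All 6 supplemented libraries lay above all 3 CTR libraries, and the AA and IGF1 libraries overlapped. The pooled log2 fold change was 0.56 ± 0.07 (SE), with an adjusted p of 0.0212. Taken separately, dre-miR-181a-3p changed by 0.59 ± 0.09 in AA (adjusted p = 0.00156) and by 0.53 ± 0.09 in IGF1 (adjusted p = 0.00704), and the direct comparison of AA with IGF1 gave 0.06 ± 0.09 (adjusted p = 0.684). The IGF1 value lies just under the 0.55 needed for a call, so this profile is not counted as a shift called in both.

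Raw counts of ipu-miR-29b were 12, 7 and 4 in AA libraries and 4, 14 and 5 in IGF1 libraries, against 30, 40 and 20 in CTR libraries. All 6 supplemented libraries lay below all 3 CTR libraries, and AA and IGF1 overlapped each other. The counts are small, with a mean of 30.0 counts in CTR and a supplemented mean below the 10 of the filter. The pooled log2 fold change was -2.11 ± 0.32 (SE, adjusted p = 0.0474), with -2.09 ± 0.40 in AA and -2.10 ± 0.40 in IGF1. It was the only profile called in the pooled test whose AA and IGF1 changes both exceeded 0.55, 0.105% of those tested. The other 37 miR-29 profiles did not share this size of change, with a median log2 fold change of 0.04 in AA and -0.29 in IGF1 and none called in the pooled test. Of the 37, 1 minor arm was called lower for IGF1 against CTR (0.944% of all profiles) and none for AA (0.315% of all profiles). The 3 minor arms of the family had medians of -0.33 in AA, where 1 was positive, and -0.63 in IGF1. Of the 37, ola-miR-29c had 48.3 ± 11.4 normalised counts in AA and 45.7 ± 5.98 in IGF1, against 67.1 ± 10.4 in CTR (SD, n = 3 each). All 6 of its supplemented libraries lay below CTR, with a pooled change of -0.51 ± 0.19 (adjusted p = 0.351). Both pooled calls depended on single libraries: each was made in only 2 of the 9 fits that left out a library, without IGF1 replicate 2 or 3 for dre-miR-181a-3p and without AA replicate 1 or IGF1 replicate 2 for ipu-miR-29b. In all 9 fits the pooled change kept its sign and size, at 0.53 to 0.62 for dre-miR-181a-3p and -2.33 to -1.93 for ipu-miR-29b, while the highest adjusted p was 0.358 for dre-miR-181a-3p and 0.652 for ipu-miR-29b.

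The pooled test treats a difference between AA and IGF1 as spread, so it makes few calls where the supplements act unequally. When the groups were kept apart and the mean of AA and IGF1 was set against CTR, 26 profiles from 15 miRNA numbers passed, 2.73% of the 953, with 23 of them higher (2.41%) and 3 lower (0.315%). Of these, 12 belonged to the muscle-specific list and 14 to other miRNAs. For 11 of the 26 (1.15% of all profiles), from 9 miRNA numbers, the direct test of AA against IGF1 stayed above an adjusted p of 0.05, which does not show that the supplements act alike, and 5 of those 11 were minor arms. For the remaining 15, the AA and IGF1 changes differed from each other in the direct test, and all but 3 of these were muscle-specific. On their own, AA against CTR gave 31 calls (3.25%), of which 28 were higher (2.94%) and 3 lower (0.315%). IGF1 against CTR, with the same CTR libraries, gave 18 (1.89%), with 9 in each direction (0.944%). AA against IGF1 gave 37 (3.88%), of which 28 were higher in AA (2.94%) and 9 lower (0.944%). The averaged call of dre-miR-206-3p was made in 9 of the 9 fits without a library, that of gmo-let-7a-3-3p in 8, of dre-miR-125b-1-3p in 7, of dre-miR-181a-3p and abu-miR-33-5p in 6, of dre-miR-338-5p in 5, of dre-miR-19d-3p in 4 and of dre-miR-30a-3p in 3.

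**Figure D1:**
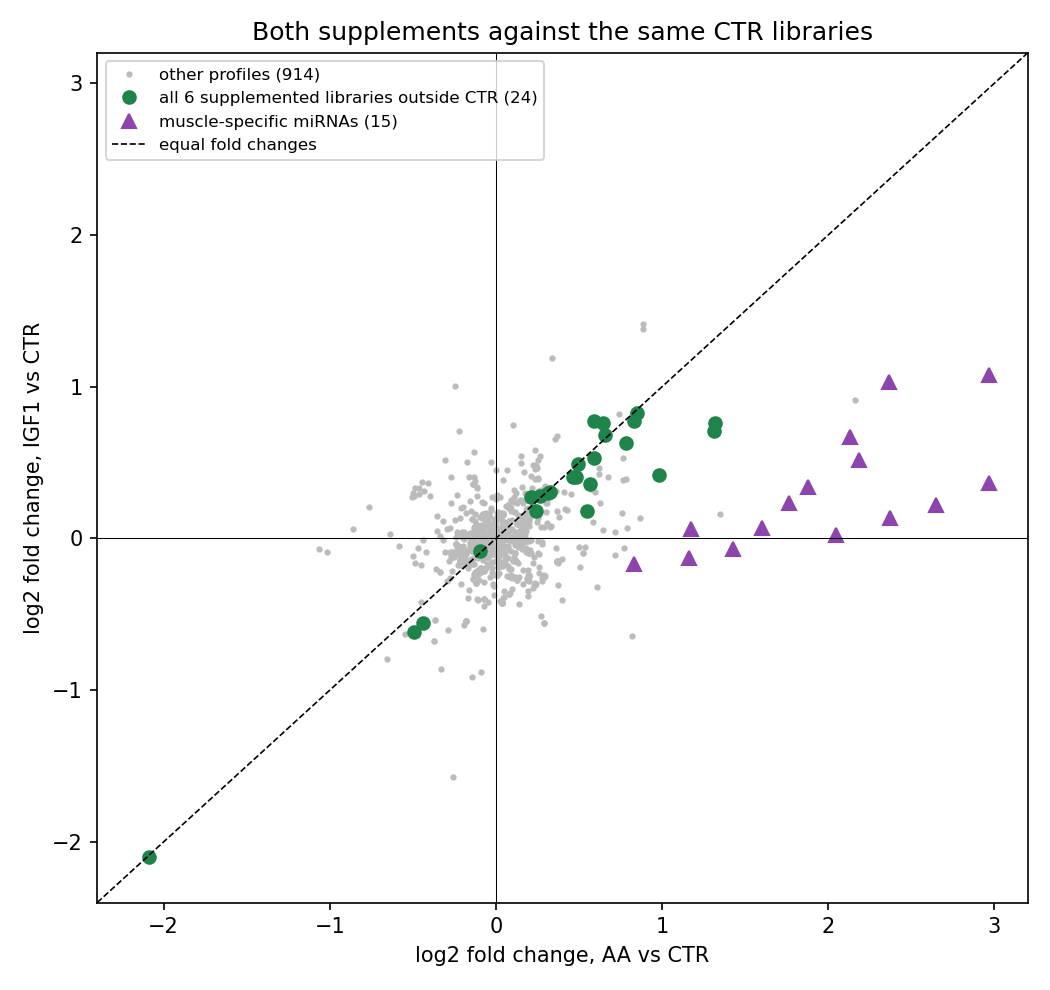
Log2 fold change against CTR in IGF1 (vertical) and in AA (horizontal) for the 953 profiles, both from 1 edgeR fit with the same 3 CTR libraries, so the axes are not independent. Green circles are 24 profiles whose 6 supplemented libraries all lay outside the CTR range, muscle-specific miRNAs aside. They were picked for lying on the same side of CTR under both supplements. Their shared sign, and in part their closeness to the dashed line of equal change, follow from that choice and support nothing. The 15 muscle-specific miRNAs (purple triangles) were picked by name and lie below the line, with a median of 2.05 in AA and 0.22 in IGF1.

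The profiles below, other than the muscle-specific list, ipu-miR-29b, dre-miR-338-5p, dre-miR-181a-3p and the 3 most abundant, were chosen after their values were seen, because every supplemented library lay outside the CTR range, the averaged comparison called them or their family had the same sign in both supplements. In 22 profiles (2.31%) from 10 miRNA numbers, all 6 supplemented libraries lay above all 3 CTR libraries, and in 4 profiles (0.42%) from 3 miRNA numbers all 6 lay below. The higher set held 7 let-7 profiles, 3 of miR-181, 3 of miR-125, 2 each of miR-33 and miR-206, and 1 each of miR-26, miR-30, miR-128, miR-155 and miR-338. The lower set held 2 miR-29 profiles, dre-miR-19d-3p and dre-miR-130a. A weaker criterion, being higher than the CTR library of the same number in 6 of 6 supplemented libraries, was met by 77 profiles (8.08%), and 44 were lower in 6 of 6 (4.62%).

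Minor arms were common among the higher profiles. A profile was taken as a minor arm when a partner entry of the same species had a mean count at least 2 times higher, which left 812 profiles that were not minor arms. The partner was the other arm of the same name, or else an entry without an arm or with the locus number dropped. For gmo-let-7a-3-3p it was gmo-let-7a-5p. Of the minor arms, 13 had all 6 supplemented libraries above CTR (9.22%) and none had all 6 below, whereas among the 812 others 9 lay above (1.11%) and 4 below. The 13 came from 6 miRNA numbers (let-7, miR-26, miR-125, miR-128, miR-181 and miR-338). For the minor arms as a whole the median change was 0.10 in AA and 0.02 in IGF1 on the log2 scale, against -0.02 in AA and -0.00 in IGF1 for all profiles. Minor arms are rarer than other profiles, with a median mean count of 102 against 3658 for the others. Among profiles with a mean under 3000 counts the shares above CTR were 13 of 130 minor arms (10%) and 8 of 390 others (2.05%). That cut does not match the abundance of the sets, as the median mean count was still 78.6 for these minor arms and 234 for these others. Whether abundance accounts for the difference in shares was not tested. Without let-7, and at any count, the shares above CTR were 8 of 123 minor arms (6.5%) and 7 of 722 others (0.97%). These counts are descriptions, and profiles of related species can share reads.

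**Figure D2:**
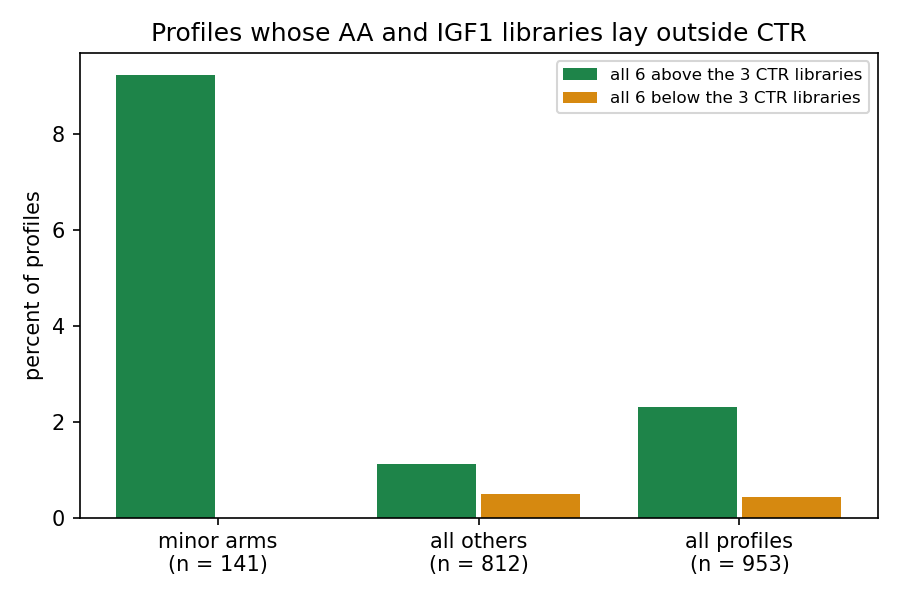
Share of profiles (percent) whose 6 AA and IGF1 libraries all lay above (green) or all below (orange) the 3 CTR libraries, for minor arms, for all others and for all 953 profiles. The share above CTR was 9.22% in minor arms and 1.11% in the others, and no minor arm had all 6 libraries below.

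The ratio of a minor arm to its partner arm is formed within a library and is not changed by library scaling. Partner counts can join the products of several hairpins, so these are ratios between entries and not between the arms of 1 precursor. The partner of ssa-miR-125a-2-3p, for example, had the same counts as dre-miR-125b-5p. Counts of dre-miR-181a-3p per 1000 counts of dre-miR-181a-5p were 91.9, 87.6 and 106.4 in AA libraries and 93.3, 78.0 and 91.7 in IGF1 libraries, against 65.2, 65.8 and 74.1 in CTR libraries. Every supplemented library therefore held more dre-miR-181a-3p per count of dre-miR-181a-5p than any CTR library. No other miR-181 minor arm had a ratio above CTR in all 6 supplemented libraries, dre-miR-181a-5-3p and gmo-miR-181a-3p included. The guide dre-miR-181a-5p had a pooled log2 fold change of 0.15 ± 0.07 (SE, adjusted p = 0.447). Over all such pairs of arms, the ratio was above CTR in all 6 supplemented libraries for 10 pairs (7.09%) from 5 miRNA numbers (let-7, miR-26, miR-125, miR-181 and miR-489), and below for 1 (0.709%). The median log2 change over all pairs was 0.13 in AA and 0.07 in IGF1.

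The let-7 family, which restrains growth factor and cell-cycle genes in animals, had 7 of its 108 profiles above CTR in all 6 supplemented libraries (6.48%), beside 2.31% of all profiles. Of these 7, 5 were among the 18 minor arms (27.8%) and 2 among the 90 other profiles (2.22%, near the share of all profiles) of the family. Its clearest member was the passenger arm gmo-let-7a-3-3p, with 313, 329 and 294 normalised counts in AA and 387, 306 and 289.9 in IGF1, against 222.8, 198 and 179.9 in CTR. AA and IGF1 libraries overlapped each other and none reached down to CTR. The pooled log2 fold change of gmo-let-7a-3-3p was 0.67 ± 0.11 (SE, adjusted p = 0.0697), and the averaged comparison called it (0.67 ± 0.11, adjusted p = 0.00714), with 0.65 in AA and 0.68 in IGF1. Per 1000 counts of gmo-let-7a-5p there were 3.49 ± 0.162 in AA and 3.43 ± 0.558 in IGF1, against 2.18 ± 0.314 in CTR (SD, n = 3 each). The guide arm gmo-let-7a-5p itself had a pooled change of -0.00 ± 0.05. For dre-let-7c-3p the ratio to dre-let-7c-5p was 84.7 ± 5.90 per 1000 in AA and 78.5 ± 8.44 in IGF1, against 61.8 ± 5.80 in CTR, again without overlap. Over the family, the median change on the log2 scale was 0.20 in AA and 0.30 in IGF1 for the 18 minor arms, and -0.03 in AA and 0.05 in IGF1 for the 90 other profiles. None had all 6 supplemented libraries below CTR. No let-7 profile was called in the pooled test.

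**Figure D3:**
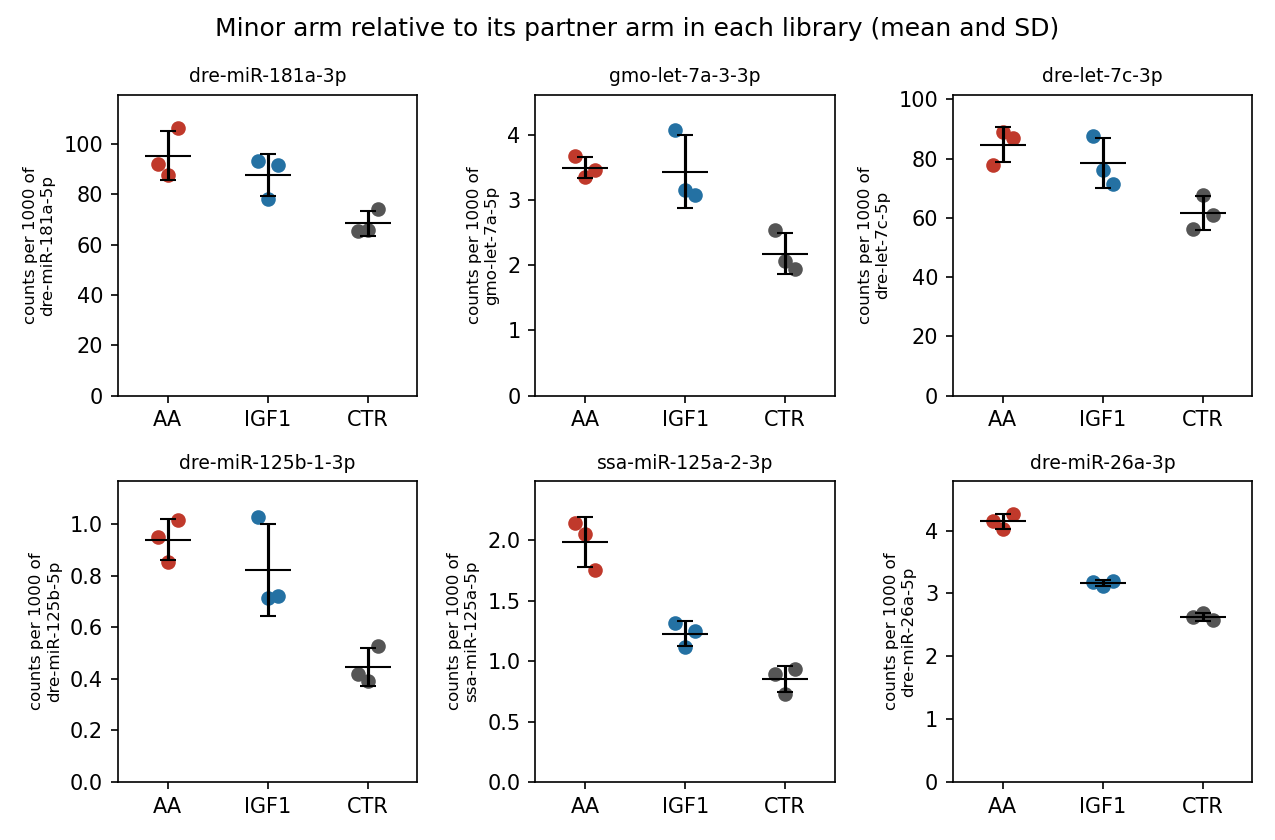
Counts of 6 minor arms per 1000 counts of their partner arm in each library (points), with the mean and SD of the 3 libraries of AA, IGF1 and CTR. In each panel all AA and IGF1 points lie above all CTR points, for example 87.6 to 106.4 in AA and 78.0 to 93.3 in IGF1, against 65.2 to 74.1 in CTR for dre-miR-181a-3p. Partner entries can join the products of several hairpins. The panels were chosen after the values were seen.

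Within miR-181, the family of the only higher call in the pooled test, dre-miR-181a-5-3p and gmo-miR-181a-3p also had all 6 supplemented libraries above CTR. Normalised counts of dre-miR-181a-5-3p were 1026 ± 50.4 in AA and 917 ± 75.5 in IGF1, against 707 ± 126.4 in CTR (SD, n = 3 each). Those of gmo-miR-181a-3p were 275 ± 11.6 in AA and 279.8 ± 5.79 in IGF1, against 225 ± 55.0 in CTR. The profile gmo-miR-181a-3p was not called in the pooled or the averaged comparison. The averaged comparison called it in 0 of the 9 fits without a library. The averaged comparison gave dre-miR-181a-5-3p 0.46 ± 0.10 (adjusted p = 0.0230), below the size needed for a call. The 7 minor arms of the family had a median of 0.32 in AA and 0.36 in IGF1. That of the 13 other miR-181 profiles was 0.17 in AA and 0.13 in IGF1.

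miR-125 targets IGF2 in mouse muscle. In this family 2 of the 6 minor arms were called in the averaged comparison (2.73% of all profiles), and the guide did not pass the test. The minor arms were not shared evenly, with a median log2 fold change of 0.80 in AA and 0.18 in IGF1. Of the 6, 4 were called for AA against CTR (3.25% of all profiles) and 1 for IGF1 against CTR (1.89% of all profiles). AA against IGF1 called 3 of them (3.88% of all profiles). Normalised counts of dre-miR-125b-1-3p were 149, 171 and 177 in AA and 195.3, 143.9 and 149 in IGF1, against 84.5, 91.2 and 107 in CTR. All 6 supplemented libraries lay above all 3 CTR libraries, and AA and IGF1 overlapped each other. Its pooled log2 fold change was 0.80 ± 0.16 (SE, adjusted p = 0.114), with 0.83 in AA and 0.78 in IGF1, and the averaged comparison called it (adjusted p = 0.0104). The entry mze-miR-125c, whose name gives no arm, had nearly the same counts, with means of 166 ± 13.6 in AA and 167 ± 28.3 in IGF1, against 93.3 ± 12.9 in CTR (SD, n = 3 each), so both may count the same reads. A further minor arm, ssa-miR-125a-2-3p, had 337, 412 and 306 in AA and 250, 224 and 257 in IGF1, against 180.6, 169.5 and 189 in CTR. Here all 3 groups were separate, and the change was larger in AA (0.98) than in IGF1 (0.42), a difference of 0.56 ± 0.14 that the direct test called (adjusted p = 0.0255). The guide dre-miR-125b-5p had a pooled change of -0.18 ± 0.07 (adjusted p = 0.351), and the ratio of dre-miR-125b-1-3p to it was 0.940 ± 0.0810 per 1000 in AA and 0.821 ± 0.179 in IGF1, against 0.446 ± 0.0718 in CTR.

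Among the other higher profiles, dre-miR-338-5p, the minor arm of a miRNA known best from nervous tissue in mammals, had 136.7, 214.2 and 178 normalised counts in AA and 184, 163 and 238 in IGF1, against 105, 114 and 118 in CTR. The supplemented libraries were spread widely but none overlapped CTR. The pooled log2 fold change was 0.71 ± 0.17 (SE, adjusted p = 0.234), and the averaged comparison called it (0.70 ± 0.15, adjusted p = 0.0230). Its ratio to the partner arm, 432 ± 196.5 per 1000 in AA and 475 ± 105 in IGF1, against 285 ± 71.4 in CTR, overlapped between the groups. The profile dre-miR-30a-3p had 77.9 ± 12.3 in AA and 90.9 ± 13.3 in IGF1, against 52.5 ± 9.81 in CTR (SD, n = 3 each), with an averaged change of 0.68 ± 0.16 (adjusted p = 0.0407). In miR-338 (5 profiles) and in miR-30 (43 profiles), 1 profile each was called for IGF1 against CTR (1.89% of all profiles). None was called for AA (3.25% of all profiles). For miR-30 the IGF1 count is near the share of all profiles. The minor arm ssa-miR-21b-3p, the averaged change of which was 0.59 ± 0.12 (adjusted p = 0.0159), had 1180, 978 and 1364 in AA and 934, 759.6 and 1081 in IGF1, against 552, 692 and 825 in CTR. Its IGF1 and CTR libraries overlapped, although each supplemented library exceeded the CTR library of its number. Of the 6 miR-21 profiles, 2 were called for AA against CTR (3.25% of all profiles) and none for IGF1 (1.89% of all profiles).

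miR-33, encoded in the sterol-regulator gene SREBF of vertebrates and known for repressing cholesterol export, was called in the averaged comparison through 2 similar profiles. Of the 4 miR-33 profiles, 2 were called for AA against CTR (3.25% of all profiles) and none for IGF1 against CTR (1.89% of all profiles). The profile abu-miR-33-5p had 84.5, 38.5 and 59.6 normalised counts in AA and 57.8, 30.2 and 40.1 in IGF1, against 27.9, 24.9 and 18.7 in CTR. Replicate 1 was the highest and replicate 2 the lowest in both supplements, and none overlapped CTR. The pooled log2 fold change was 1.057 ± 0.28 (SE, adjusted p = 0.261), and the averaged comparison gave 1.04 ± 0.22 (adjusted p = 0.0230). The entry gmo-miR-33b-5p gave almost the same counts and an averaged change of 1.01 ± 0.23. The AA change of abu-miR-33-5p was 1.32 ± 0.25 and the IGF1 change 0.76 ± 0.26, and the difference of 0.56 ± 0.22 was not called (adjusted p = 0.147).

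**Figure D4:**
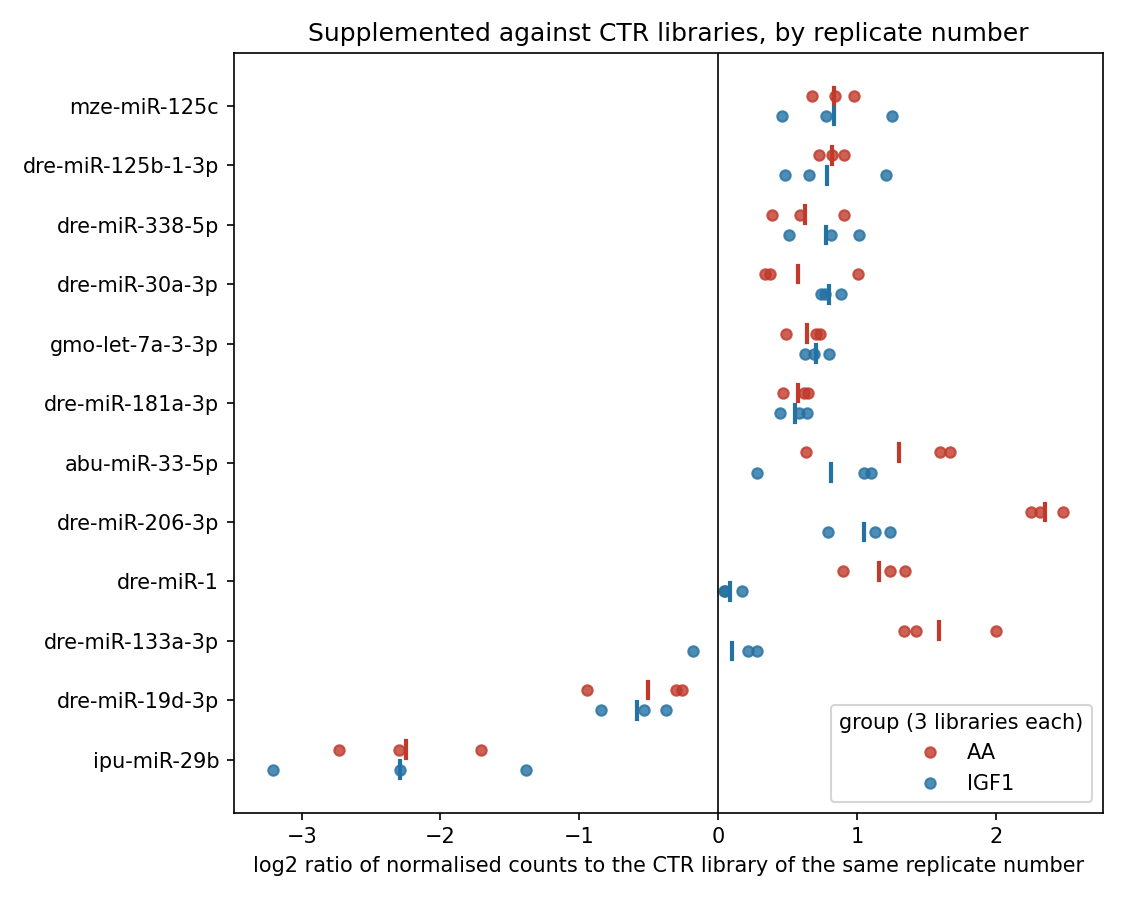
Log2 ratio of the normalised count in each AA (red) and IGF1 (blue) library to the CTR library of the same replicate number for 12 profiles, with a bar at the mean of the 3 libraries. All 6 ratios lie above 0 for the 6 upper profiles and for abu-miR-33-5p, dre-miR-206-3p and dre-miR-1. They lie below 0 for dre-miR-19d-3p and ipu-miR-29b. In all of these but dre-miR-1 every supplemented library lay outside the CTR range. The side of 0 follows from that and supports nothing. The profiles mze-miR-125c, dre-miR-125b-1-3p, dre-miR-30a-3p, gmo-let-7a-3-3p, abu-miR-33-5p and dre-miR-19d-3p were chosen after their values were seen. The ratios of dre-miR-1 and dre-miR-133a-3p lie far above 0 in AA and near 0 in IGF1.

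Fewer profiles were lower under both supplements. miR-19, a member of the growth-promoting miR-17-92 cluster, gave 1 of them. Normalised counts of dre-miR-19d-3p were 1968, 2455 and 2834 in AA and 2113, 2027 and 2701 in IGF1, against 3796, 2941 and 3502 in CTR. The highest supplemented library, AA replicate 3, lay just below the lowest CTR library. The pooled log2 fold change was -0.56 ± 0.11 (SE, adjusted p = 0.114), with -0.49 in AA and -0.62 in IGF1, and the averaged comparison called it (adjusted p = 0.0104). Over the 13 miR-19 profiles the median was -0.17 in AA and -0.40 in IGF1. Of the 13, 6 were lower than CTR of the same number in 6 of 6 libraries, beside 4.62% of all profiles. Called lower against CTR were 3 of the 13 for IGF1 (0.944% of all profiles) and none for AA (0.315% of all profiles). The 61 profiles of the whole cluster and its paralogs had a median of 0.04 in AA and -0.15 in IGF1. For dre-miR-130a all 6 supplemented libraries also lay below CTR, but by little, with 2774 ± 197 normalised counts in AA and 2874 ± 47.5 in IGF1, against 2994 ± 42.9 in CTR (SD, n = 3 each), a pooled change of -0.09 ± 0.06. The third profile called lower in the averaged comparison, ssa-miR-26a-4-3p, had 104, 91.0 and 124.6 in AA and 58.6, 42.3 and 30.6 in IGF1, against 165, 116 and 105 in CTR, so the AA and CTR libraries overlapped and the IGF1 change (-1.57) carried the call.

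Some families without a call in the pooled or averaged comparison had changes of the same sign in both supplements. All 24 miR-218 profiles were positive in both, with a median log2 value of 0.17 in AA and 0.20 in IGF1. Only 2 of them (8.33%) were higher than the CTR library of the same number in 6 of 6 libraries, near the share of all profiles. All 9 miR-148 profiles were positive in both as well, with medians of 0.19 in AA and 0.11 in IGF1. Both miR-734 profiles, near copies in counts, were higher in 6 of 6, with medians of 0.89 in AA and 1.40 in IGF1, at low counts: dre-miR-734 had 6.62, 10.7 and 13 normalised counts in AA and 7.03, 18.1 and 21.2 in IGF1, against 2.88, 5.53 and 8.64 in CTR. These groups overlapped, and the averaged comparison of dre-miR-734 gave an adjusted p of 0.129. With a mean near 10 counts over the 9 libraries, both profiles passed the filter only through the supplemented libraries, where they are high. Their changes are therefore given as a description and support nothing. Of 15 miR-107 profiles, 8 were higher in 6 of 6, and the family's median change was 0.19 in AA and 0.12 in IGF1 on the log2 scale. Of 9 miR-130 profiles, 4 were lower in 6 of 6, with medians of -0.10 in AA and -0.18 in IGF1. In miR-27 and miR-101 the medians differed in sign between the supplements, at -0.02 in AA and 0.04 in IGF1 for miR-27 and 0.12 in AA and -0.22 in IGF1 for miR-101, although 11 of 56 and 7 of 22 profiles were lower in 6 of 6. Across all profiles 8.08% were higher and 4.62% lower in 6 of 6, and 435 of the 953 were positive in AA and 472 in IGF1. Profiles of a family are often near copies, as the 953 fell into 608 groups when near-identical entries were collapsed. Counts within a family are therefore not counts of independent members.

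The muscle-specific miRNAs changed unequally under the supplements. Over their 15 profiles the median change, on the log2 scale, was 2.05 in AA and 0.22 in IGF1. All 15 were positive in AA and 12 in IGF1, beside 435 in AA and 472 in IGF1 of all 953 profiles. Of the 15, 9 (60%) were higher than the CTR library of the same number in 6 of 6 libraries, beside 8.08% of all profiles. None was called in the pooled test (0.21% of all profiles). The averaged comparison called 12 (2.73% of all profiles), and the direct comparison of AA with IGF1 called all 15 (3.88% of all profiles). Within the list, miR-206 alone was called under each supplement, and dre-miR-206-3p had 10111, 14963 and 16911 normalised counts in AA and 4795, 5859 and 6126 in IGF1, against 2028, 2673 and 3544 in CTR. The 3 groups were separate, and AA was the highest. The changes were 2.37 ± 0.09 in AA (SE, adjusted p = 1.6e-08) and 1.03 ± 0.09 in IGF1 (adjusted p = 0.000106), with a difference of 1.33 ± 0.09 (adjusted p = 6.1e-06). The pooled test, which counts that difference as spread, gave 1.85 ± 0.42 with an adjusted p of 0.226.

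The profile ola-miR-206 likewise had all 6 supplemented libraries above CTR, with 647 ± 129.9 in AA and 237 ± 26.1 in IGF1, against 152.9 ± 55.9 in CTR (SD, n = 3 each). The heart and skeletal muscle miRNA dre-miR-1 had 3869, 6395 and 8148 in AA and 2152, 2791 and 3611 in IGF1, against 2075, 2716 and 3211 in CTR. Its AA libraries were above every other library, while the IGF1 and CTR libraries overlapped, and its change was 1.17 ± 0.09 in AA, with 0.06 ± 0.09 in IGF1 (log2, SE). The miR-133 profiles, whose genes lie beside those of miR-1 or miR-206 in vertebrates, ranged over 1.16 to 2.97 in AA and -0.13 to 0.52 in IGF1. For miR-499, made from an intron of a slow myosin gene, dre-miR-499-5p changed by 2.05 ± 0.19 in AA and 0.02 ± 0.20 in IGF1. Outside the list, ssa-miR-551-5p was called in the averaged comparison with 61.0, 43.9 and 41.2 in AA and 26.6, 22.13 and 14.1 in IGF1, against 12.5, 7.37 and 14.4 in CTR, and its AA and IGF1 changes also differed (1.25 ± 0.25, adjusted p = 0.0140).

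The most abundant miRNAs did not pass the test. dre-miR-21 had a pooled log2 fold change of -0.11 ± 0.12 (SE). The next, ccr-miR-22a and its near copy in counts tni-miR-22a, had -0.02 ± 0.07 each. Lists of miRNAs by role are given by their pooled medians beside that of all 953 profiles, -0.01. These were -0.01 for 202 profiles of myogenesis regulators (3.47% above CTR in all 6 libraries and 0.99% below), -0.03 for 257 profiles of IGF, PI3K and MTOR regulators (4.67% above and 1.17% below), -0.07 for 61 of the miR-17-92 cluster and its paralogs and 0.03 for 108 of let-7, where all profiles had 2.31% above and 0.42% below. The 36 profiles of miRNAs tied to cell-cycle arrest had -0.15, with none outside CTR in all 6 libraries. Among lists of other cell types, the median was 0.08 for 9 inflammatory profiles, of which abu-miR-155 lay above CTR, -0.03 for 23 of smooth muscle and fibroblasts, 0.25 for 7 of blood cells, 0.06 for 5 of endothelium, -0.01 for 20 of neural miRNAs, 0.05 for 13 of epithelium and -0.01 for 56 of the Hox cluster. No member of these 7 lists or of the arrest list was called in the pooled or the averaged comparison. Blood-cell miRNAs summed to at most 0.00189% of the zebrafish counts in AA, 0.00163% in IGF1 and 0.00109% in CTR.

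As a measure over all profiles, the variation of log2 values within replicate numbers was divided between the contrasts. Supplemented against CTR took 26.6% of it, AA against IGF1 37.3%, and the remaining 36.1% was spread over 4 degrees of freedom at 9.02% each, where equal shares would be 16.7%. Among the 27 ways of taking 1 library of each number as the control, 2, the true one included, gave at least as large a share for that contrast (exact permutation test, one-sided, p = 0.0741), and the smallest p the design allows is 0.037.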

How the data were processed

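Small RNA libraries of pacu myotubes, 9 in all (3 each of AA, IGF1 and CTR), were analysed. Per the submitters' processing notes and the methods, the authors checked reads with FastQC 0.11.8, trimmed them with Trimmomatic, kept those over 17 nt and mapped them with Bowtie2 to mature miRNAs of 13 fish species in miRBase 22.1. They deposited raw counts per entry, and normalised counts, a signal that the authors made by dividing each library by a DESeq2 size factor (0.695 to 1.36). The counting of reads that match several entries was not given in the sources used here, and 1041 entries shared all their counts with another.

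Here, groups and replicate numbers were read from the titles. Raw counts of distinct profiles with a mean of at least 10 were fitted with edgeR 4.0.16 in R 4.3.3 (TMM, glmQLFit and glmQLFTest). The pooled test used 1 term for supplemented against CTR and the replicate number as a block. A 3-group fit with the same block gave AA, IGF1, their difference and their mean against CTR. Calls needed an adjusted p (Benjamini-Hochberg, 953 profiles) of at most 0.05 and a log2 change of at least 0.55. Standard errors came from the fold change and its F statistic. The filter left out 0.00134% of counts, and 1199 entries had none. Of the profiles tested, 11 had a mean under 10 counts in CTR or in the supplemented libraries. Counting error is small for abundant profiles and large near 10 counts. In the pairing check, deviations from group means correlated at 0.287 to 0.566 in 9 pairs of the same number and at -0.484 to 0.15 in 18 others. Such deviations sum to 0 in a group, so the values of the 18 depend on those of the 9. P-values measure the spread between these libraries.

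Named by rule were shared shifts called in the pooled test, the muscle-specific list, other pooled calls, ipu-miR-29b, dre-miR-338-5p and the 3 most abundant profiles. The members, lists and rules were chosen with earlier results of these data known. DESeq2 1.42.0 with the block, other normalizations, filters and entry sets, no block, and leaving out each library were tried as alternatives. The fits were tested on simulated data. No sequences were used.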

Additional observations from a re-analysis of the deposited data

Results flagged for a closer look

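For 18 of the named profiles the changes against CTR differed between AA and IGF1, by the direct test of AA against IGF1 (edgeR quasi-likelihood test, adjusted over 953 profiles). All 18 differences are positive, meaning a higher level in AA than in IGF1, and no cause was tested. This holds for named profiles only: the muscle-specific ones were named by list and the others after their values were seen. Over all 953 profiles the direct test called 37 (3.88%), with 28 higher in AA (2.94%) and 9 lower (0.944%). The muscle-specific profiles, from the largest difference in log2 fold change, were dre-miR-133a-2-5p at 2.61, ola-miR-133-5p at 2.43, dre-miR-133a-5p at 2.24 and dre-miR-499-5p at 2.02. These were followed by ssa-miR-206-5p at 1.89, dre-miR-133c-5p at 1.67, dre-miR-133b-3p at 1.54, dre-miR-133a-3p at 1.54, ola-miR-1-3p at 1.53, abu-miR-133b at 1.49 and ola-miR-206 at 1.46. Below them stood dre-miR-206-3p at 1.33, abu-miR-133a at 1.29, dre-miR-1 at 1.11 and ipu-miR-499 at 1.00. Adjusted p-values of these 15 ranged from 6.1e-06 for dre-miR-206-3p to 0.0191 for ssa-miR-206-5p. The latter passed the filter on low counts only through AA, where it is high, so its difference is a description. Outside the muscle-specific list, ssa-miR-26a-4-3p differed by 1.31 (adjusted p = 0.00471), ssa-miR-551-5p by 1.25 (adjusted p = 0.0140) and ssa-miR-125a-2-3p by 0.56 (adjusted p = 0.0255). Groups held 3 libraries each, too few for a test of single outlying libraries.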

How the results depend on the processing

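The 2 pooled calls (104 profiles at an unadjusted p under 0.05) were fragile. The settings below tested different numbers of profiles, so their counts of calls are not shares. These were 608 with near-identical entries collapsed, 207 with zebrafish entries, 822 at a mean of at least 50 counts, 1238 with no filter and 953 otherwise. With zebrafish entries the averaged comparison and AA against IGF1 made fewer calls, but over a larger share of the profiles tested. Supplemented against CTR gave 1 call with near-identical entries collapsed, 1 with zebrafish entries and 1 at a mean of at least 50 counts, 9 with DESeq2 and the replicate block, 11 with upper-quartile factors and 26 as the mean of AA and IGF1. Without 1 library it gave 0 to 2 calls, with 0 when any CTR library, AA replicate 2 or 3, or IGF1 replicate 1 was left out. Without the replicate block it again gave 2. Shared shifts, 1 in the report, numbered 0 with zebrafish entries, 0 at a mean of at least 50 counts, 6 with DESeq2, 9 with upper-quartile factors, 2 by adjusted p alone and 0 to 1 without 1 library. The averaged comparison (26) gave 11 without the replicate block, 13 with zebrafish entries, 40 with upper-quartile factors and 11 to 34 without 1 library, with 12 without CTR replicate 1 and 11 without CTR replicate 2. AA against IGF1 (37) gave 20 without the replicate block, 11 with zebrafish entries, 62 with no filter and 18 to 71 without 1 library, with 18 without IGF1 replicate 3, 19 without AA replicate 3, 24 without CTR replicate 2, 65 without IGF1 replicate 2 and 71 without AA replicate 2. Profiles with all 6 supplemented libraries above CTR numbered 20 on TMM values, 17 of them among the 22, and 23 to 65 without 1 library (a CTR library in each case above 40). Those below numbered 4 on TMM values and 4 to 30. Such counts can only grow as libraries are removed. The variance share ranged over 26.1 to 26.9%, with p from 0.0741 to 0.111. Direction was lost only by abundant profiles near 0. dre-miR-21 was 0.00144 with upper-quartile factors and -0.21 to 0.0477 without 1 library, positive only without CTR replicate 1. tni-miR-22a and ccr-miR-22a were 0.0888 with upper-quartile factors and -0.0408 to 0.0121 without 1 library, positive without CTR replicate 2 or any AA library. dre-miR-130a was 0.0141 with upper-quartile factors. Of the remaining named values under all alternatives, 730 kept direction and side of the threshold, 16 gained a call and 15 lost it. These are pooled changes, and only 2 named profiles were called at the start. Most of the 730 therefore stayed uncalled, and all 15 losses fell on the 2 pooled calls. The cause of these changes was not tested. Profiles near 10 counts, such as ipu-miR-29b, are limited by depth.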
